A study of Caenorhabditis elegans with 8 samples.

Results

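Nuclear hormone receptors are transcription factors with a zinc-finger DNA-binding domain and, in most cases, a ligand-binding domain that can sense a lipid or other small molecule. Caenorhabditis elegans has an unusually large family of them, most of which descend from an HNF4-like ancestor, and a smaller set has clear counterparts across animals. DAF-12, the receptor for the steroid dafachronic acids, is the member with the best-known ligand. The genes described here are all those in the count tables whose WormBase name starts with nhr-, together with daf-12, and they number 270 of 46748 gene identifiers. All 270 are protein-coding. The nuclear receptor gene sex-1 and others that carry different names (fax-1, odr-7, unc-55 and hizr-1) are not members.

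Poly(A)-selected, strand-specific RNA sequencing was performed on whole late embryos of 2 strains, with 4 biological replicates each. The 3A strain carries lin-52(bn151), in which LIN-52 has the substitutions L42A, C44A and E46A and a GFP::3xFLAG tag. The WT strain carries lin-52(bn139), the same GFP::3xFLAG tag on otherwise unaltered LIN-52, so that both groups are tagged and neither is an untagged wild type. LIN-52 is a subunit of MuvB, which joins the pocket protein LIN-35 and an E2F-DP dimer in the DREAM repressor complex, and the design compares 3A with WT to find genes misexpressed when LIN-35 no longer associates with MuvB. Adults had been grown in liquid culture for 72 h (20 °C), and embryos released by bleaching were incubated for up to 3.5 h before freezing, so a library pools many embryos within a window of ages. In such bulk RNA, fewer cells of a type and less RNA per cell cannot be told apart.

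Gene counts summed to 17346339 to 29101114 read pairs per library in 3A and to 14667743 to 68040557 in WT. Ribosomal RNA genes took 1.75% to 40.7% of the counts in 3A and 0.720% to 3.24% in WT. The scaling factors of the trimmed mean of M-values (TMM) ran from 0.630 to 1.44 in 3A and from 0.730 to 1.92 in WT. The mutated gene itself, lin-52, averaged 6.86 ± 2.66 TMM-scaled CPM (counts scaled to a common library total) in 3A and 6.78 ± 3.81 CPM in WT (SD, n = 4 each), and gene counts do not show the substitutions. Markers of late tissues were present in every library. The summed level of 6 muscle genes was 402 to 1007 CPM per kb of exon in 3A and 373 to 1972 in WT, and that of 6 epidermal genes was 2741 to 8501 in 3A and 1449 to 13797 in WT. Both sums were highest in WT replicate 1.

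Of the 270 members, 225 had more than 3 counts in at least 1 library, and 121 had more than 3 counts in all 8. At the other end, 17 members had 0 counts in every library and a further 28 never exceeded 3 counts, a signal that corresponds to 0.0441 to 0.205 unscaled CPM depending on depth. A total of 152 members (56.3%) passed the filter on low counts and were tested, against 62% of all 19641 protein-coding genes. The remaining 73 had more than 3 counts somewhere but did not pass. At a level of at least 1 CPM in every library of a group, 72 members were expressed in 3A embryos and 74 in WT embryos, and 66 met this in all 8 libraries. The number of members above 3 counts ran from 136 to 200 in 3A libraries and from 149 to 219 in WT libraries. It was highest in the deepest library, WT replicate 3, but did not follow depth throughout. WT replicate 1, with 45738876 read pairs, had 177 such members, and 3A replicate 2, with 29101114, had 200.

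Most of the family lies on chromosome V, where a smaller share of members was tested than on the other chromosomes together. Chromosome V holds 167 members, of which 89 (53.3%) were tested and 28 (16.8%) reached 1 CPM in all 8 libraries. The other chromosomes hold 103 members, of which 63 (61.2%) were tested and 38 (36.9%) reached that level. Other genes showed a contrast in the same direction, with 44.4% of protein-coding genes on chromosome V tested against 67.9% elsewhere. Chromosomes IV and X had the largest shares of members at 1 CPM or more in all 8 libraries, 14 of 33 and 11 of 24. The share of all protein-coding genes at that level was not taken for any chromosome. On chromosome I, 8 of 23 members were tested, although 72.9% of all protein-coding genes there were.

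**Figure D1:**
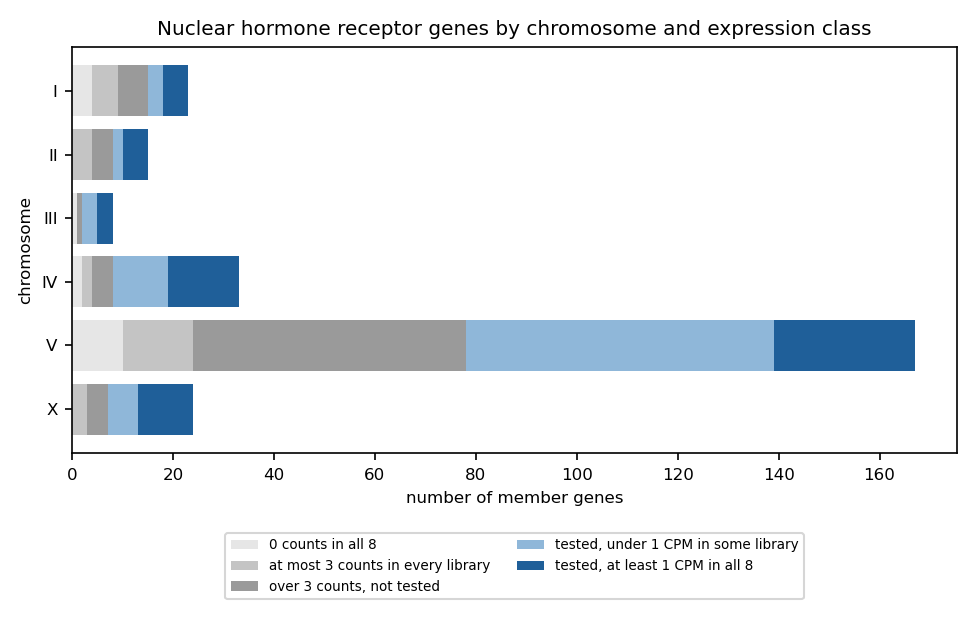
Number of member genes (horizontal axis) on each chromosome (vertical axis), divided by how much signal they had over the 8 libraries. Chromosome V holds 167 of the 270 members, and 28 of these reached 1 CPM in all 8 libraries.

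None of the 10 highest members was on the list of receptors with counterparts across animals. That list did not include the HNF4-like gene nhr-64, which is among the 10. Levels are compared between genes as TMM-scaled CPM per kb of exon. nhr-61 (WBGene00003651; WBcel235 chromosome II, 14816136 to 14818543, minus strand) was the highest member in all 8 libraries. Its length-scaled level averaged 18.6 ± 1.53 CPM per kb in 3A and 18.9 ± 5.62 CPM per kb in WT (SD, n = 4 each). In CPM, nhr-61 stood at 28.3, 24.6, 26.3 and 23.4 in 3A replicates 1 to 4 and at 37.7, 22.3, 21.9 and 22.4 in WT replicates 1 to 4. WT replicate 1 alone was high, and the groups overlapped.

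nhr-86, an intestinal receptor known for responses to bacterial metabolites, ranked 2 or 3 in every library, at 14.3 ± 1.75 CPM per kb in 3A and 13.8 ± 3.72 in WT. Next came nhr-70 (11.4 ± 2.21 CPM per kb in 3A and 12.3 ± 5.86 in WT) and nhr-114 (12 ± 3.26 in 3A and 10.1 ± 4.65 in WT). NHR-114 is needed for fertility on certain bacterial diets. nhr-58 (10.3 ± 2.28 in 3A and 9.79 ± 1.93 in WT), the HNF4-like gene nhr-64 (9.28 ± 0.691 in 3A and 9.04 ± 0.892 in WT) and nhr-122 (8.32 ± 0.341 in 3A and 9.32 ± 1.88 in WT) followed. From nhr-86 to nhr-122, each gene's range over the 8 libraries overlapped that of the next. Whether neighbours in this order differed within libraries was not tested. nhr-46, nhr-13 and nhr-270 came next, with means of 5.92, 5.74 and 4.26 CPM per kb over the 8 libraries and ranges that also overlapped that of nhr-122. NHR-13 is known as a dimerization partner of NHR-49.

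Expression was concentrated in these few genes. The 10 highest members held 31.2% to 42.6% of the family's summed length-scaled level in 3A libraries and 25.7% to 43.0% in WT libraries. The summed level of all 270 was 268, 282, 239.9 and 257 CPM per kb in 3A replicates 1 to 4 and 321, 288, 319.8 and 245 CPM per kb in WT replicates 1 to 4. WT replicate 4 lay among the 3A libraries, so the groups overlapped, with means of 262 ± 17.7 in 3A and 293 ± 35.8 in WT (SD, n = 4 each). As raw counts the family was a small part of each library, between 0.0264% and 0.0631% of gene counts in 3A and between 0.0309% and 0.0975% in WT.

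**Figure D2:**
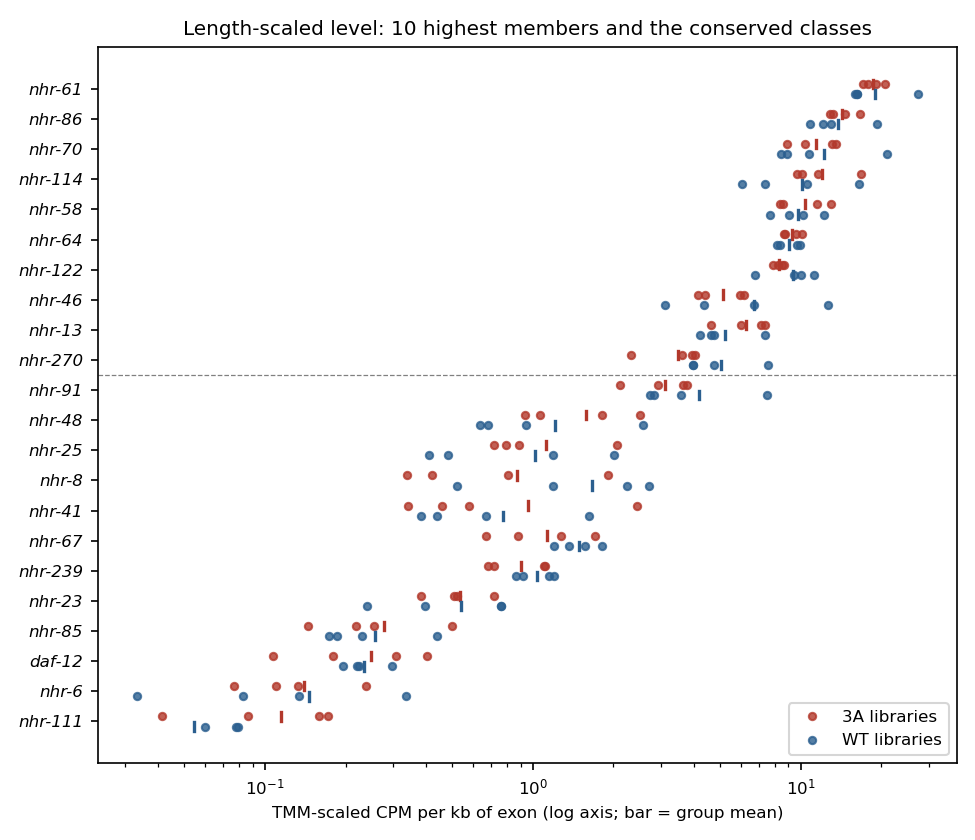
Length-scaled level of single members (TMM-scaled CPM per kb of exon, log axis) in each 3A and WT library, with a bar at the group mean. The 10 highest members stand above the dashed line and the 12 listed members of conserved classes below it. The 0 of nhr-111 in WT replicate 4 cannot be drawn on a log axis.

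The listed receptors with counterparts across animals were present at low to moderate levels. Of 12 listed, 11 were tested, none passed the edgeR test over all genes, and none had an unadjusted p-value under 0.05. nhr-91, of the GCNF class, was the highest per length, at 3.11 CPM per kb in 3A and 4.15 in WT. Its level was 7.27, 5.67, 4.09 and 7.05 CPM in 3A replicates 1 to 4 and 14.5, 5.50, 6.90 and 5.31 CPM in WT replicates 1 to 4. WT replicate 1 was the highest library and the groups overlapped, with 3A over WT at -0.43 on the log2 scale (SE 0.36, edgeR adjusted p = 0.739).

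nhr-25, the FTZ-F1 (NR5A) orthologue needed for epidermal development and molting, had 2.05, 1.84, 2.29 and 5.31 CPM in 3A replicates 1 to 4 and 5.15, 1.05, 3.05 and 1.25 CPM in WT replicates 1 to 4. One library of each strain, 3A replicate 4 and WT replicate 1, was about as high as the other, and the log2 fold change was 0.09 (SE 0.53, adjusted p = 0.974 by edgeR). nhr-23, the ROR orthologue that drives the molting programme, was lower still per length, at 0.533 CPM per kb in 3A and 0.539 in WT (log2 fold change -0.02, SE 0.43, adjusted p = 0.993 by edgeR). nhr-67, the Tailless orthologue, had 1.06, 2.70, 1.40 and 2.01 CPM in 3A and 2.49, 2.17, 2.88 and 1.91 CPM in WT. The 3 epidermal and neural regulators therefore had overlapping groups in each case. nhr-85, the Rev-erb class gene, nhr-41, of the TR2/TR4 class, and nhr-48 averaged 0.279, 0.956 and 1.58 CPM per kb in 3A and 0.258, 0.776 and 1.21 in WT.

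daf-12 (WBGene00000908; chromosome X, 10635908 to 10666875, plus strand) was among the weaker members tested. It had 1.78, 0.478, 0.798 and 1.37 CPM in 3A replicates 1 to 4 and 0.869, 0.981, 1.00 and 1.33 CPM in WT replicates 1 to 4. The WT libraries all lay within the 3A range, and the log2 fold change was 0.05 (SE 0.44, adjusted p = 0.982 by edgeR). Its relative nhr-8, which acts in sterol homeostasis and xenobiotic resistance, had 0.793, 3.61, 1.53 and 0.641 CPM in 3A and 0.989, 4.24, 5.12 and 2.24 CPM in WT. Here replicates 2 of both strains and WT replicate 3 were the high libraries, and the log2 fold change of -0.89 (SE 0.59) had an edgeR adjusted p of 0.655. The NR4A gene nhr-6 averaged 0.139 CPM per kb in 3A and 0.147 in WT, and nhr-239 averaged 0.901 in 3A and 1.03 in WT. nhr-111, which was not tested, had at most 0.198 CPM in any library.

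The series compares 3A with WT, and no member was called at an edgeR quasi-likelihood adjusted p under 0.05. The background was 0.371% of the 12664 genes tested, or 47 genes. Before adjustment 3 members had a p-value under 0.05, all lower in 3A (nhr-92, nhr-19 and nhr-170), which is 1.97% of the 152 tested against a background of 9.75% for both directions and 4.03% for genes lower in 3A. DESeq2's Wald test called 1 member, nhr-92, lower in 3A, against a background of 1.31% of the genes with an adjusted p, or 0.15% for genes lower in 3A.

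nhr-92 (WBGene00003682; chromosome IV, 1620094 to 1623753, plus strand) had the smallest p-value of the family. Its level was 0.330, 0.335, 0.432 and 1.01 CPM in 3A replicates 1 to 4, against 2.22, 2.0, 1.62 and 1.66 CPM in WT replicates 1 to 4. All 4 3A libraries lay below all 4 WT libraries, with 3A replicate 4 the closest to WT. These levels rest on 5, 14, 13 and 11 counts in 3A and 74, 145, 212 and 20 counts in WT. The means were 0.526 ± 0.324 CPM in 3A and 1.88 ± 0.285 CPM in WT (SD, n = 4 each). This is a log2 fold change of -1.93 with an SE of 0.42 (edgeR adjusted p = 0.108, unadjusted p = 0.000706), so the difference did not pass the edgeR threshold. With DESeq2 the adjusted p was 0.000989. With 1 library left out at a time, the edgeR adjusted p ranged over the 8 fits from 0.0426 to 0.491, and the call was made in 1 of them, without 3A replicate 4.

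nhr-92 stands in a run of 4 members with no other protein-coding gene between them, all on the plus strand. Upstream of it, nhr-122 had 9.98, 9.68, 10.2 and 9.25 CPM in 3A and 7.91, 11.7, 11 and 13.1 CPM in WT. Downstream, nhr-87 averaged 1.1 ± 0.438 CPM in 3A and 1.24 ± 0.246 in WT, and nhr-146 averaged 1.91 ± 0.559 in 3A and 2.39 ± 0.332 in WT. The 3 neighbours had overlapping groups and log2 fold changes of -0.16 (SE 0.24), -0.18 (SE 0.39) and -0.32 (SE 0.31) in that order. Whether the change of nhr-92 differed from theirs was not tested.

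The other members with an unadjusted edgeR p under 0.05 were nhr-19 and nhr-170. nhr-19 (WBGene00003618; chromosome II, 9598180 to 9605526, minus strand) had 1.19, 1.6, 1.03 and 2.11 CPM in 3A replicates 1 to 4 and 3.12, 2.22, 2.87 and 2.24 CPM in WT replicates 1 to 4. The groups did not overlap, but 3A replicate 4 and WT replicate 2 were close. On the log2 scale its change was -0.84 (SE 0.33, adjusted p = 0.465 by edgeR). nhr-170 (WBGene00008309; chromosome V, 18796061 to 18800826, minus strand) had 0.264, 0.478, 0.366 and 0.0916 CPM in 3A and 0.719, 0.842, 1.04 and 0.332 CPM in WT. Its groups overlapped through WT replicate 4, and the log2 fold change was -1.22 (SE 0.50, adjusted p = 0.479 by edgeR).

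The largest positive log2 fold change among members at 1 CPM or more in all 8 libraries was that of nhr-256 (WBGene00022805; chromosome V, 1743771 to 1747981, plus strand). It had 4.10, 3.90, 6.15 and 4.40 CPM in 3A replicates 1 to 4 and 2.85, 3.29, 3.65 and 2.41 CPM in WT replicates 1 to 4. Every 3A library was above every WT library, and the log2 fold change was 0.60 (SE 0.28, adjusted p = 0.520 by edgeR). Counting both directions, 6 members had groups that did not overlap, 2 higher in 3A (nhr-256 and nhr-65) and 4 lower (nhr-92, nhr-19, nhr-18 and nhr-132). These are 3.95% of the members tested, against a background of 6.16% of all genes tested. By direction the shares were 1.32% of members against 3.8% of all genes for higher in 3A, and 2.63% of members against 2.36% of all genes for lower in 3A. The difference between these shares was not tested.

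**Figure D3:**
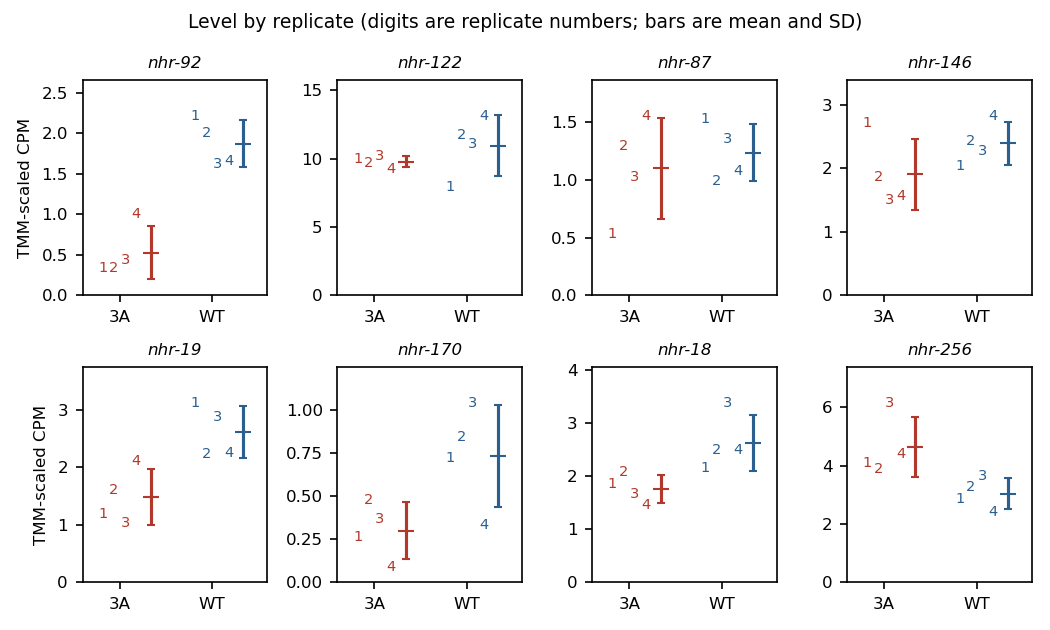
TMM-scaled CPM of 8 members by replicate (digits are replicate numbers, bars the mean and SD of 4), 3A on the left and WT on the right of each panel. The groups of nhr-92, nhr-19, nhr-18 and nhr-256 do not overlap, and those of nhr-122, nhr-87, nhr-146 and nhr-170 do.

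The remaining members with the 10 smallest p-values were nhr-31, nhr-18, nhr-212, nhr-143, nhr-45 and nhr-270. All 6 had negative log2 fold changes, from -0.82 (SE 0.40) for nhr-31 to -0.53 (SE 0.31) for nhr-270, with edgeR adjusted p-values from 0.551 to 0.602. nhr-31 is known for excretory cell growth. It had 2.11, 4.04, 1.5 and 1.83 CPM in 3A replicates 1 to 4 and 4.05, 4.07, 6.5 and 2.16 CPM in WT replicates 1 to 4. Its 3A replicate 2 was level with the middle WT libraries while the other 3A libraries were below all WT libraries.

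As a whole, the log2 fold changes of the family lay on the negative side. Of the 152 members tested, 118 (77.6%) had a negative log2 fold change, against 57.2% of all genes tested, and 34 had a positive one, against 42.8% of all genes tested. The median was -0.24 (interquartile range -0.49 to -0.04), against -0.08 for all genes tested. On chromosome V, with 89 of the members tested, it was -0.27 against -0.16 for all genes tested there. On chromosomes II, III and IV the members' median was also the lower, at -0.43 against -0.04, -0.23 against -0.01 and -0.25 against -0.09. On X the order was reversed, at -0.13 against -0.24, and on I the medians were 0.01 and -0.01. The members tested were weaker than all genes tested, with a median mean level of 1.64 against 5.33 CPM and a median SE of 0.42 against 0.37. The 66 members at 1 CPM or more in all 8 libraries had a median of -0.15, and no median of all genes at that level was taken. The filter asks for a level reached in at least 4 libraries, so a gene can pass through 1 group alone, and without it the median over 253 members was -0.28. Over the 14 alternative fits the median ranged from -0.62, with scaling by library size alone, to -0.15, without WT replicate 3. The difference from the median of all genes ranged from -0.31 to -0.09 in the same fits. These are descriptions, and no test of the family as a set was made.

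**Figure D4:**
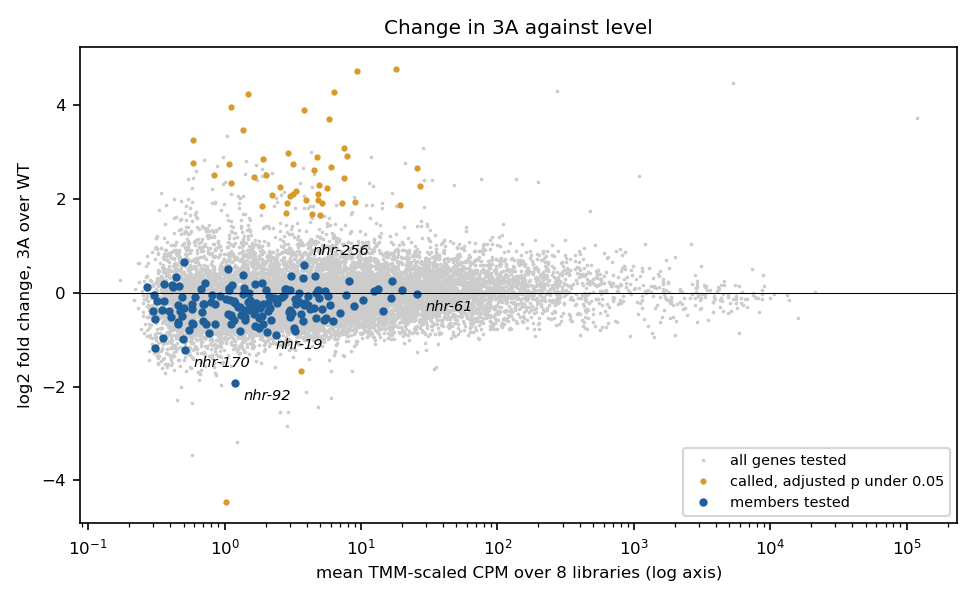
Log2 fold change of 3A over WT against mean level (TMM-scaled CPM over 8 libraries, log axis) for all genes tested, the genes called and the 152 members tested. No member was called, and nhr-92 had the most negative value of the family, at -1.93.

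The shift moved with single libraries of both strains. The members' median minus that of all genes was -0.16 with all 8 libraries, -0.09 without WT replicate 3 and -0.31 without WT replicate 1. This difference was -0.13 without WT replicate 2 and -0.21 without WT replicate 4. Without 3A replicates 1 to 4 in turn, the difference was -0.14, -0.24, -0.13 and -0.15. WT replicate 3 held the highest value of 58 members tested (38.2%), although it held the highest value of only 17.2% of all genes tested. It also had the highest TMM factor, 1.92, the most counts and the lowest summed level of epidermal markers, 1449 CPM per kb. The gene sqt-3 made up most of the epidermal sum, at a mean of 3942 of 4621 CPM per kb in 3A and 4589 of 5344 in WT. In WT replicate 3, sqt-3, dpy-7, rol-6 and dpy-13 had their lowest values of the 8 libraries. The epidermal gene lin-26 had its highest there, 18.5 CPM, and elt-3 lay in between. WT replicate 1, with the highest muscle and epidermal marker sums, held the highest value of 27 members and the lowest of 26. These are 17.8% and 17.1% of the members tested, against 26.6% and 25.1% of all genes tested. Late-tissue markers had mostly negative log2 fold changes, in 5 of 6 neuronal genes (median -0.52), 5 of 6 muscle genes (median -0.49) and 5 of 6 epidermal genes (median -0.24). None of these 18 was called by edgeR or DESeq2. Of them, 1 neuronal and 1 epidermal gene had an unadjusted edgeR p under 0.05, both lower in 3A, against a background of 4.03% of all genes tested. The neuronal genes summed to 99.6 to 173 CPM per kb in 3A and 108 to 298 in WT. Most of that sum came from snb-1, at a mean of 117 of 136 CPM per kb in 3A and 134 of 162 in WT. Of the 10 early-embryo genes listed, 9 were tested and 8 of these had a positive log2 fold change, with a summed level of 19.9 to 39.2 CPM per kb in 3A and 13.4 to 38.5 in WT, and med-1 had 0 counts in all libraries. Before adjustment 4 of the 9 had an edgeR p under 0.05, all higher in 3A, against a background of 5.72% of all genes tested. The 6 germline meiosis genes summed to 16.9 to 23.5 CPM per kb in 3A and 5.51 to 8.13 in WT, groups that did not overlap. The gene syp-1, the 1 of them that was called (higher in 3A), made up 11.5 to 17 of that sum in 3A and 1.96 to 2.51 in WT, and without it the groups overlapped, at 5.17 to 6.51 in 3A and 2.99 to 5.71 in WT. Yolk protein genes of the adult intestine summed to 0.291 to 20.6 CPM per kb in 3A and 0.547 to 15.4 in WT, and 31 major sperm protein genes to 3.24 to 10.04 in 3A and 3.07 to 7.35 in WT. The part of these marker levels and of depth in the family's shift was not tested.

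Members differed in how they varied over the libraries. Among the 66 at 1 CPM or more in all 8, the highest library exceeded the lowest by 2.35-fold at the median, and for all genes at that level by 2.69-fold. The steadiest was nhr-64, at 13, 11.9, 11.8 and 13.7 CPM in 3A replicates 1 to 4 and 13.1, 13.5, 11.4 and 11.1 CPM in WT replicates 1 to 4, a range of 1.23-fold. The most variable was nhr-88, at 3.83, 1.65, 1.96 and 3.30 CPM in 3A and 9.29, 2.25, 1.55 and 1.08 CPM in WT, a range of 8.6-fold with WT replicate 1 on top. nhr-119 behaved alike, with 26.8 CPM in WT replicate 1 and 3.32 to 13.5 CPM in the others.

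A pair of other members, chosen after their values were seen, had their high values in other libraries. nhr-68, an activator of the propionate shunt, had 1.52, 4.76, 1.86 and 2.11 CPM in 3A replicates 1 to 4 and 1.17, 4.41, 6.71 and 1.16 CPM in WT replicates 1 to 4. nhr-69, which has a role in glucose-dependent insulin signalling, had 2.18, 6.24, 3.92 and 3.76 CPM in 3A and 1.62, 6.66, 8.26 and 3.49 CPM in WT. Both were highest in WT replicates 2 and 3 and 3A replicate 2, the 3 libraries with the highest TMM factors. In these genes the spread within each strain exceeded the difference between the means.

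**Figure D5:**
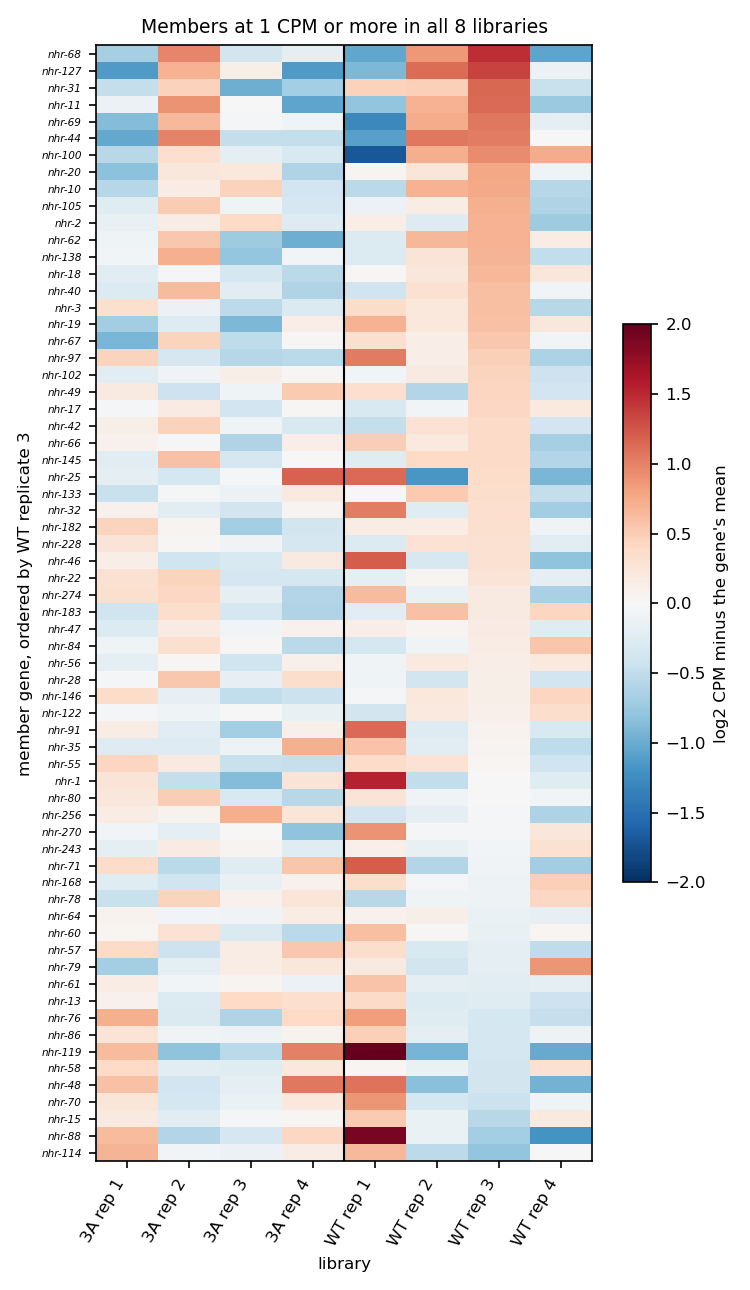
Log2 TMM-scaled CPM minus the gene's mean (colour) of the 66 members at 1 CPM or more in all 8 libraries (rows, ordered by WT replicate 3) in each library (columns, 3A then WT). WT replicate 3 is above the gene's mean for nhr-68 and nhr-69 at the top, and WT replicate 1 for nhr-119 and nhr-88 near the bottom.

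By known role, 13 of 14 listed members of embryonic patterning and epidermis had an entry and 7 were tested, none called. nhr-2, an early zygotic gene, had 4.03, 5.0, 5.92 and 3.76 CPM in 3A replicates 1 to 4 and 4.91, 3.77, 7.26 and 2.74 CPM in WT replicates 1 to 4. nhr-40, known for embryonic muscle and body morphogenesis, averaged 3.26 ± 1.32 CPM in 3A and 3.75 ± 1.1 in WT, and nhr-60, a gene of embryonic seam cells, 1.75 ± 0.435 in 3A and 2.08 ± 0.520 in WT (SD, n = 4 each). The seam-cell gene nhr-74 had 0.991, 0.335, 0.399 and 0.824 CPM in 3A and 0.809, 0.207, 0.313 and 0.166 CPM in WT, with a log2 fold change of 0.66 (SE 0.59, adjusted p = 0.752 by edgeR). The other 6 with an entry, nhr-72, nhr-73, nhr-77, nhr-81, nhr-82 and nhr-89, were too weak to be tested.

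All 18 listed members of metabolism and stress were tested, none was called, and 10 had positive and 8 negative log2 fold changes, with a median of 0.02. The fatty-acid regulator nhr-49 had 5.29, 3.49, 4.42 and 6.69 CPM in 3A replicates 1 to 4 and 5.90, 3.12, 6.28 and 3.57 CPM in WT replicates 1 to 4. Its groups overlapped almost fully, as did those of its partner nhr-80 (1.5 ± 0.489 CPM in 3A and 1.51 ± 0.171 in WT). The smallest p-values belonged to nhr-45, a regulator of mitochondrial stress responses (log2 fold change -0.71, SE 0.39), nhr-8, nhr-62, known for longevity under dietary restriction (-0.53, SE 0.37), and nhr-28 (0.36, SE 0.29), with edgeR adjusted p-values from 0.588 to 0.720.

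Some members next to each other in the genome differed in level, and how often other adjacent genes do so was not examined. Among protein-coding genes ordered by start, 141 members fell into 46 runs of adjacent members, 33 of them on chromosome V, and the longest run had 9 members. In 14 runs every member was tested, in 10 none was, and 22 were mixed. The tested share was 51.8% in runs and 61.2% among the 129 members that stand alone. The adjacent genes nhr-58 and nhr-132 (chromosome V, 532259 to 536247) averaged 10.1 and 1.04 CPM per kb over the 8 libraries. In a run of 7 on chromosome V (6980587 to 7000651) all were tested, with means from 0.390 CPM per kb for nhr-162 to 2.70 for nhr-42. In the 4-member run of nhr-26 on the X chromosome no gene was tested. Adjacent paralogues can share sequence, and the deposited counts leave out reads that aligned to several places, so levels of close copies are uncertain. In addition, 22 members share exon bases with another gene on the same strand, where reads are counted as ambiguous for both genes.

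Other genes of the receptor pathways were examined from listed names. Calls in these lists, as in the role lists above, are by edgeR over all genes, and DESeq2 called none of them either. Before adjustment 4 of the pathway genes had an edgeR p under 0.05, all higher in 3A, and 0 of the role-list members did. These were 2 of 4 coregulator genes tested (din-1 and cbp-1), 1 of 6 NHR-49 and NHR-80 pathway genes (acs-2) and 1 of 5 propionate shunt genes (acdh-1). The 4 hormone synthesis and sterol genes tested and the 7 molting genes tested had none. Over all genes tested, 9.75% had an unadjusted edgeR p under 0.05, and 5.72% had one and were higher in 3A. Of 8 genes of dafachronic acid synthesis and sterol handling, 4 were tested and none was called. daf-9, the cytochrome P450 of the last step, never exceeded 0.198 CPM in 3A and 0.180 CPM in WT, and hsd-1 had 0 counts in all libraries. strm-1, a methyltransferase that limits dafachronic acid precursors, was well expressed, at 39.1, 29.5, 35.5 and 31.7 CPM in 3A replicates 1 to 4 and 28.8, 26.8, 18.8 and 31.2 CPM in WT replicates 1 to 4 (log2 fold change 0.36, SE 0.25, adjusted p = 0.660 by edgeR). dhs-16, a dehydrogenase of the same pathway, averaged 1.68 ± 0.711 CPM in 3A and 2.57 ± 0.835 in WT, with overlapping groups.

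The 4 coregulator genes tested all had positive log2 fold changes and none was called. din-1, which encodes the corepressor of DAF-12, had 331, 558, 279.7 and 538 CPM in 3A replicates 1 to 4 and 144, 193, 105 and 334 CPM in WT replicates 1 to 4. WT replicate 4 lay inside the 3A range, and the log2 fold change came to 1.14 with an SE of 0.41 (edgeR adjusted p = 0.418, unadjusted p = 0.0166). The acetyltransferase gene cbp-1 had 55.8, 57.1, 47.6 and 109.5 CPM in 3A and 54.1, 26.7, 28.1 and 42.6 CPM in WT (log2 fold change 0.83, SE 0.34, adjusted p = 0.481 by edgeR). Its 3A replicate 4 stood apart, and WT replicate 1 overlapped the 3A libraries.

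Genes known to depend on these receptors were not called either. Of 7 genes of the NHR-49 and NHR-80 pathway, 6 were tested and none was called. acs-2, an acyl-CoA synthetase gene induced by NHR-49, had 4.43, 2.10, 2.03 and 1.19 CPM in 3A replicates 1 to 4 and 0.869, 1.34, 1.2 and 1.49 CPM in WT replicates 1 to 4 (log2 fold change 1.00, SE 0.41, adjusted p = 0.479 by edgeR). ech-1.1 had a log2 fold change of 0.65 (SE 0.36). All 5 propionate shunt genes were tested and none was called. acdh-1, the shunt's acyl-CoA dehydrogenase gene, had 13.7, 8.20, 1.86 and 1.65 CPM in 3A and 0.959, 2.06, 2.70 and 1.41 CPM in WT. Its 3A replicates 1 and 2 were high and the other 3A libraries lay within the WT range, for a log2 fold change of 1.81 with an SE of 0.63 (edgeR adjusted p = 0.400, unadjusted p = 0.0141). hphd-1 had a log2 fold change of 0.41 (SE 0.42). Of 9 molting genes, 7 were tested and none was called, with values of 0.67 (SE 0.39) for fbn-1 and -0.54 (SE 0.32) for mlt-8. Among the receptors that are not members, sex-1 averaged 15 ± 4.34 CPM in 3A and 13.6 ± 5.14 in WT (SD, n = 4 each), a per-length level under that of the 7 highest members.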

How the data were processed

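Per the labels' protocols, 1 µg of total RNA per sample gave poly(A)-selected, strand-specific libraries, read as 150-bp pairs. The submitters' processing notes name fastp, STAR, HTSeq, DESeq2 and build WBcel235, with versions not given in the sources used here. The deposited values are raw counts per gene, with HTSeq's closing counters, which stayed out of library sizes. Reads aligned to several places were 2.61% to 14.4% of all reads counted in 3A and 1.82% to 3.97% in WT. Positions and union exon lengths came from Ensembl release 115 (WBcel235), and symbols from a supplied table, in which all 270 members were matched.

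The analysis used edgeR 4.0.16 under R 4.3.3, with filterByExpr (minimum count 10), TMM scaling and the quasi-likelihood test of 3A over WT, adjusted by Benjamini-Hochberg over 12664 genes and called under 0.05. SE is the log2 fold change over the square root of F. Levels are TMM-scaled CPM, per kb of exon between genes. The fit was tested on simulated data. Alternatives were DESeq2 1.42.0, other scalings and filters, a replicate block and each library left out. No 2 replicates agreed within sampling noise (chi-square over genes at least 63.5 times its degrees of freedom). P-values measure the spread between these libraries. Floors cover counting error only. Members and lists were chosen with earlier results of these data known. Named were the conserved classes, the 10 highest members by mean TPM, the 10 smallest p-values and the leading genes of each list by p. Any other gene named was picked with its values in view. The listed names nhr-75 and daf-21 were not matched. Promoter and protein sequences were not used here.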

Additional observations from a re-analysis of the deposited data

Results flagged for a closer look

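In 9 of 102 groups of 4 libraries, the highest library stood apart from the other 3 by more than Dixon's 95% limit, which chance exceeds in about 1 in 20 groups. In 3A, replicate 4 was high for nhr-25 (5.31 CPM, others 1.84 to 2.29), nhr-41 (5.31 CPM, others 0.741 to 1.26), nhr-92 (1.01 CPM, others 0.330 to 0.432) and cbp-1 (109.5 CPM, others 47.6 to 57.1). In WT, replicate 1 was high for nhr-48 (8.42 CPM, others 2.08 to 3.08), nhr-61 (37.7 CPM, others 21.9 to 22.4), nhr-13 (10.4 CPM, others 5.98 to 6.71) and ech-1.1 (13.1 CPM, others 4.96 to 5.56). The family's summed level in TPM (length-scaled counts, each library brought to one total) was high in 3A replicate 2, at 286, with the others at 137 to 161. 3A replicate 4 had the largest ribosomal RNA share, 40.7%, and WT replicate 1 the highest muscle and epidermal marker sums. The part of these in the high values was not tested.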

How the results depend on the processing

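The number of genes called among all genes was 47, and it moved to 10 with scaling by library size alone, 71 without the filter, 165 with DESeq2 and 18 to 196 when 1 library was left out. It was 18 without WT replicate 2 or 3A replicate 3, 25 without WT replicate 3, 30 without 3A replicate 1 and 196 without WT replicate 1. The number of members called was 0, and it was 1 with DESeq2 and 0 to 1 when 1 library was left out, nhr-92 each time and without 3A replicate 4 in the second case. At 2 CPM in every library 43 members were expressed in 3A and 45 in WT. The summed level was 180.2 ± 71.4 TPM in 3A and 232.8 ± 129.1 TPM in WT (SD, n = 4 each). In TMM-scaled CPM per kb, a scale chosen after seeing the data, it was 262 ± 17.7 in 3A and 293 ± 35.8 in WT. The groups overlapped on both scales.

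With the replicate number as a block, 175 genes and 1 member (nhr-92, log2 fold change -2.0, adjusted p 0.0309) were called, which is 1.38% of all genes tested. Deviations of same-numbered libraries correlated at 0.566, 0.600, 0.176 and 0.00849, not every pair over 0.1, and 3A replicate 1 alone matched its own number best. The labels do not say what a shared number stands for, so a pairing was neither established nor excluded. Under the block the log2 fold change was -0.089 for daf-12, 0.085 for nhr-23, -0.071 for nhr-41 and 0.015 for nhr-61, each with its sign reversed. Scaling by library size alone moved the median of all genes by -0.32, and relative to that shift the value was -0.14 for daf-12 and 0.044 for nhr-61.

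Of 630 values for 45 named genes under the alternatives, 590 kept direction and side of the threshold, 3 passed it (all nhr-92) and 37, in 14 genes, changed sign. Leaving out 1 library gave log2 fold changes from -0.53 to 0.45 for nhr-6, -0.29 to 0.34 for daf-12, -0.29 to 0.21 for nhr-23, -0.33 to 0.50 for nhr-85, -0.36 to 0.61 for nhr-25, -0.79 to 0.81 for nhr-41 and -0.58 to 0.023 for nhr-91. It gave -0.10 to 0.22 for nhr-61, -0.045 to 0.27 for nhr-86, -0.24 to 0.30 for nhr-70, -0.046 to 0.21 for nhr-58, -0.0025 to 0.082 for nhr-64, -0.62 to 0.12 for nhr-46 and -0.11 to 0.69 for hphd-1. The cause was not tested. Depth limits the weak members, since the tested members' median count was 14 in 3A replicate 4 and 16 in WT replicate 4.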
